A study of Mus musculus with 8 samples.

Results

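The genes examined were 44 genes of the cell cycle and mitosis, taken by name from a table of expression values in mouse liver. All 44 were found, among 17293 genes or sets of genes with a value above 0 in any library. They fell into 2 classes. An early class of 21 genes held 7 regulators of G1 and of entry into S phase, 10 genes of origin licensing and the replication fork, and 4 genes of deoxynucleotide supply. A late class of 23 genes held 5 cyclin, kinase and transcription factor genes of the G2/M transition, 9 mitotic kinase, checkpoint and ubiquitin ligase genes, and 9 genes of the spindle, kinetochore, chromosomes and cytokinesis. RNA from whole liver of male C57Bl/6J mice was sequenced as 8 libraries in 4 groups of 2. The groups were transgenic mice given LPS, untreated transgenic mice, wild type mice given LPS and untreated wild type mice. The transgenic mice carried ApoE-Cyp7a1, described as liver specific, which adds expression of cholesterol 7-alpha-hydroxylase, which sets the rate of bile acid synthesis. LPS, the endotoxin of Gram-negative bacteria, was injected daily at 1.5 mg/kg for 7 days. The labels give neither the ages of the mice nor a vehicle for the untreated ones. Both libraries of a group were described as biological replicates.

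Cells divide by passing through G1, S phase, G2 and mitosis. Cyclin D with Cdk4, and then cyclin E with Cdk2, inactivate the retinoblastoma proteins and free E2F factors, which transcribe the genes of DNA replication. The DREAM complex holds the late genes silent in resting cells, and B-Myb and Foxm1 activate them in G2. Most hepatocytes of an adult liver are out of the cycle and can re-enter it after injury. Immune, endothelial and blood-forming cells of the organ can divide as well.

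Values were given in FPKM, a fragment density scaled to transcript length and to the mapped fragments of the library, so the number of fragments behind a value is unknown and no counting interval can be attached. The FPKM sums of the libraries lay between 405507 and 579001 and were lower in all 4 LPS libraries than in all 4 untreated ones. Cyp7a1, from which the transgene is read, had 73.5 and 70.2 FPKM in transgenic LPS livers, 64.7 and 78.5 FPKM in untreated transgenic livers, 19.9 and 27.9 FPKM in wild type LPS livers, and 24.9 and 49.1 FPKM in untreated wild type livers. Both transgenic groups were above both wild type groups. Of the 44 genes, 4 shared their row with a second gene name (Ccnd1 with Mir3962, Cdk4 with LOC100504703, Mcm7 with Mir25 and Mir93, and Foxm1 with 4933413G19Rik), so those values cannot be split. An exon of 15 of the genes overlaps an exon on the opposite strand. The library kit keeps strand, and whether the counting used it is not given in the sources used here.

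Of the 23 late genes, 20 were under 1 FPKM in all 4 untreated libraries, Birc5, Cenpa and Mad2l1 being the exceptions, and all 23 were higher in every LPS library than in every untreated one. Mki67, the Ki-67 antigen used as a mark of cycling cells (chr7:135689784-135716361), had 2.65 and 1.88 FPKM in transgenic LPS livers, against 0.119 and 0.0919 FPKM in untreated transgenic livers. In wild type mice it had 2.14 and 2.33 FPKM with LPS, against 0.111 and 0.0272 FPKM untreated. All 4 LPS libraries lay above all 4 untreated ones, and the 2 genotypes overlapped under LPS. On the log2(FPKM + 1) scale, which understates the change of genes with low values, Mki67 rose by 1.55 ± 0.15 (SE) in transgenic mice and by 1.60 ± 0.15 in wild type mice (limma, adjusted p = 0.000544 and 0.000351). In bulk tissue, more cells of a kind and more RNA per cell cannot be told apart.

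Every LPS library was above every untreated library for 37 of the 44 genes, where 19.4% of all 17293 features with a value showed this order. The order held for 23 of 23 late genes and for 14 of 21 early genes. The 7 genes whose treatments overlapped were Cdk2, Cdc45, Mcm7, Pcna, Rrm2, Tyms and Tk1, all of the early class (named after their values were seen). No gene of the 44 had every LPS library below every untreated one, an order shown by 11.5% of all features. Genes with low untreated levels have more room to separate, so the count was also taken by level. Among features under 1 FPKM in all 4 untreated libraries the order held for 26 of 27 cell cycle genes, for 6 of 7 early and 20 of 20 late, against 26.2% of all such features. Among features with at least 1 FPKM in 2 or more untreated libraries it held for 11 of 17 cell cycle genes, for 8 of 14 early and 3 of 3 late, against 14.8%. A difference between the classes was not tested, because genes of a class share their libraries.

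**Figure D1:**
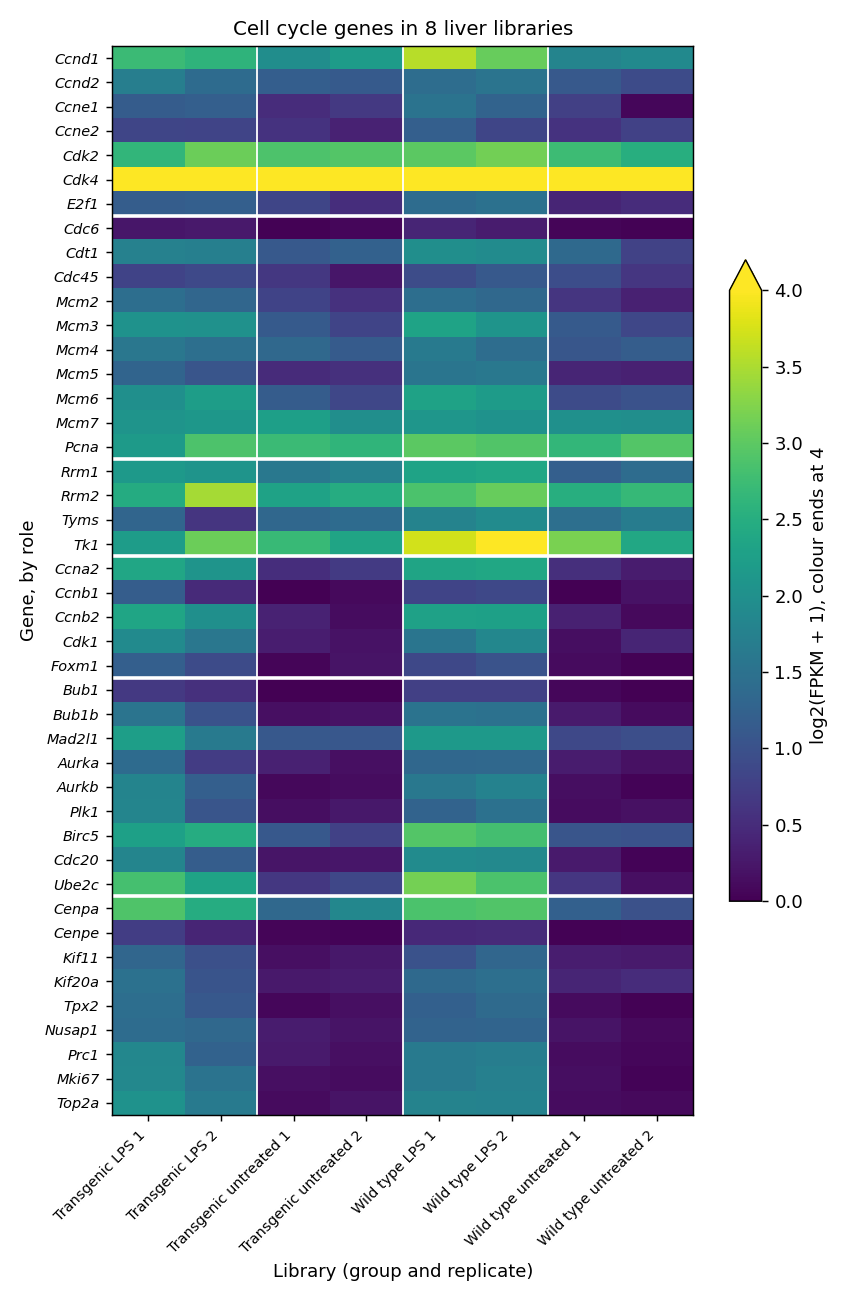
Level of each of the 44 genes (rows, grouped by role from G1 at the top to spindle and chromosome genes at the bottom) in each of the 8 libraries (columns) as log2(FPKM + 1), with colour ending at 4. The late rows are dark in the 4 untreated columns and lighter in the 4 LPS columns, while rows such as Mcm7 and Pcna have like colours in most columns. Values above 4, such as those of Cdk4, share the end colour.

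Across all features, limma was fitted to the 8 libraries with 1 mean per group, and a gene passed at an adjusted p under 0.05 over all features tested. Averaged over the genotypes and with no filter on low values, 35 of the 44 genes rose and 0 fell, where 18.5% of 17293 features rose and 9.39% fell. Taken by genotype, 27 of the 44 rose in transgenic mice (12.4% of all features, with 5.33% lower) and 32 rose in wild type mice (13.1% of all features, with 3.05% lower). With the filter used for all values below, at least 1 FPKM in at least 2 libraries, 38 of the 44 were tested among 11462 features. Of these 38, 21 reached the filter only through LPS libraries and had to be higher there, so the counts of this fit are a description. Among early genes they were 2 of 6 G1 and G1/S (Ccne1 and E2f1), 2 of 8 licensing and fork (Mcm2 and Mcm5), and 0 of 4 deoxynucleotide genes. Among late genes they were 4 of 4 G2/M, 6 of 8 kinase and checkpoint, and 7 of 8 spindle and chromosome genes. The filter thus bore more on the late class, and the counts by class below cannot be compared free of it. Averaged over the genotypes, 31 of 38 rose (20.6% of all features) and 0 fell (15.8%). In transgenic mice 25 of 38 rose (16.0%) and 0 fell (10.5%). In wild type mice 29 of 38 rose (16.2%) and 0 fell (5.40%). The late class gave 20 of 20 in each of these comparisons, and the early class 5 of 18 in transgenic mice, 9 of 18 in wild type mice and 11 of 18 averaged. With quantile normalization, which gives every library the same distribution, the late class gave 14 of 20 in transgenic mice, 15 of 20 in wild type mice and 19 of 20 averaged, and the early class 2, 7 and 9 of 18. Of all 11462 features, 1509 rose in transgenic mice, 1459 in wild type mice and 1988 averaged by that normalization. The early count of 2 of 18 in transgenic mice is near that share, so nothing is read from it. The early calls lost with quantile normalization were E2f1, Mcm2 and Mcm5 in transgenic mice, Ccne1 and Cdt1 in wild type mice, and Ccnd2, Ccne1 and Mcm4 averaged. The averaged call of Cdk4 was gained. The median averaged change was 1.44 for the late class and 0.67 for the early class, against -0.06 for all features tested.

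The G2/M genes Ccna2, Ccnb1, Ccnb2, Cdk1 and Foxm1 were separated by treatment in 5 of 5 cases. LPS was higher in each, an order shown by 19.4% of all features. The 4 genes tested reached the filter only through LPS libraries and had to be higher there. Ccnb2, a B-type cyclin that activates Cdk1 for entry into mitosis (chr9:70407692-70421547), had 4.10 and 2.98 FPKM in transgenic LPS livers, against 0.301 and 0.0925 FPKM in untreated transgenic livers. It had 3.88 and 3.86 FPKM in wild type LPS livers, against 0.287 and 0.0777 FPKM in untreated wild type livers. The treatments did not overlap, and the log2 change was 1.92 ± 0.18 in transgenic mice and 2.05 ± 0.18 in wild type mice (limma, adjusted p = 0.000443 and 0.000256). Ccna2, the A-type cyclin of S phase and G2, had 4.13 and 3.19 FPKM in transgenic LPS livers, against 0.438 and 0.596 FPKM in untreated transgenic livers. With the wild type genotype, Ccna2 had 4.06 and 4.2 FPKM with LPS, against 0.458 and 0.230 FPKM untreated. Its groups did not overlap, and it rose by 1.61 ± 0.16 in transgenic and 1.94 ± 0.16 in wild type mice (limma, adjusted p = 0.000549 and 0.000226). Cdk1, the kinase that drives mitotic entry, had 2.77 and 2.00 FPKM in transgenic LPS livers, against 0.251 and 0.140 FPKM in untreated transgenic livers. It had 1.94 and 2.60 FPKM in wild type LPS livers, against 0.109 and 0.334 FPKM in untreated wild type livers. Cdk1 rose by 1.49 ± 0.18 in transgenic and by 1.42 ± 0.18 in wild type mice (limma, adjusted p = 0.00115 and 0.00118). Foxm1, the forkhead factor that activates late genes, rose by 0.93 and 0.87 (adjusted p = 0.00485 and 0.00578), and both calls were lost with quantile normalization. Ccnb1, the main partner of Cdk1, stayed under the filter, with 1.28 and 0.392 FPKM in transgenic LPS livers, 0 and 0.0735 FPKM in untreated transgenic livers, 0.760 and 0.828 FPKM in wild type LPS livers, and 0 and 0.150 FPKM in untreated wild type livers. Its libraries were also separated by treatment.

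The mitotic kinase, checkpoint and ubiquitin ligase genes were separated by treatment in 9 of 9 cases, with LPS higher (19.4% of all features). Of those tested, 8 of 8 rose in each genotype. Of all features tested, 16.0% rose in transgenic and 16.2% in wild type mice. Of these 8 genes, 6 reached the filter only through LPS libraries and had to be higher there, so the count that rose is a description. Ube2c, the E2 enzyme that works with the anaphase-promoting complex (chr2:164769898-164778822), had 6.08 and 4.00 FPKM in transgenic LPS livers, against 0.560 and 0.796 FPKM in untreated transgenic livers. In wild type mice it had 8.01 and 6.29 FPKM with LPS, against 0.554 and 0.125 FPKM untreated. Its averaged log2 change of 2.22 ± 0.16 was the highest of the 38 genes tested, made of 1.83 ± 0.23 in transgenic and 2.62 ± 0.23 in wild type mice (limma, adjusted p = 0.00143 and 0.000277). Birc5, survivin, a part of the chromosomal passenger complex, had 3.81 and 4.54 FPKM in transgenic LPS livers, against 1.15 and 0.709 FPKM in untreated transgenic livers. It had 6.62 and 5.96 FPKM in wild type LPS livers, against 1.07 and 1.02 FPKM in untreated wild type livers. Birc5 rose by 1.43 ± 0.16 in transgenic and 1.83 ± 0.16 in wild type mice (limma, adjusted p = 0.000797 and 0.000259), and both transgenic LPS libraries were below both wild type LPS libraries. Cdc20, the activator of the anaphase-promoting complex, had 2.55 and 1.27 FPKM in transgenic LPS livers, against 0.175 and 0.181 FPKM in untreated transgenic livers. It had 2.82 and 2.70 FPKM in wild type LPS livers, against 0.227 and 0.0230 FPKM in untreated wild type livers. The change of Cdc20 was 1.27 ± 0.21 in transgenic and 1.75 ± 0.21 in wild type mice (limma, adjusted p = 0.00511 and 0.00102). The other members tested were the kinases Aurka, Aurkb and Plk1 and the spindle checkpoint genes Bub1b and Mad2l1. They rose by 0.79 (Aurka) to 1.39 (Aurkb) in transgenic and by 1.11 (Aurka) to 1.60 (Aurkb) in wild type mice. The calls of Plk1 (adjusted p = 0.0626 in transgenic and 0.0804 in wild type mice) and Aurka were lost with quantile normalization in both genotypes, and that of Mad2l1 in transgenic mice (0.0709). The adjusted p of Aurka in transgenic mice lay between 0.0039 and 0.284 over all alternatives. Bub1, a checkpoint kinase, was under the filter, at 0.590 and 0.469 FPKM in transgenic LPS livers, listed at 0 in both untreated transgenic livers, at 0.691 and 0.699 FPKM in wild type LPS livers, and at 0.0549 and 0 FPKM in untreated wild type livers.

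Among the 9 spindle, kinetochore, chromosome and cytokinesis genes, 9 were separated by treatment, with LPS higher (19.4% of all features). Of those tested, 8 of 8 rose in each genotype. Of all features tested, 16.0% rose in transgenic and 16.2% in wild type mice. Of these 8 genes, 7 reached the filter only through LPS libraries and had to be higher there, so the count that rose is a description. Top2a, the topoisomerase that untangles sister chromatids (chr11:98992943-99024189), had 3.09 and 2.1 FPKM in transgenic LPS livers, against 0.0839 and 0.151 FPKM in untreated transgenic livers. It had 2.45 and 2.41 FPKM in wild type LPS livers, against 0.0936 and 0.0736 FPKM in untreated wild type livers. Mean FPKM was 22.1 times the untreated mean in transgenic and 29.0 times in wild type mice, with log2 changes of 1.67 ± 0.16 and 1.66 ± 0.16 (limma, adjusted p = 0.000487 and 0.000355). Prc1, which bundles microtubules of the central spindle, had 2.63 and 1.38 FPKM in transgenic LPS livers, against 0.223 and 0.124 FPKM in untreated transgenic livers. It had 2.11 and 2.24 FPKM in wild type LPS livers, against 0.0913 and 0.0456 FPKM in untreated wild type livers. It rose by 1.33 ± 0.20 in transgenic and by 1.57 ± 0.20 in wild type mice (limma, adjusted p = 0.00306 and 0.00118). The remaining tested genes were Cenpa, the centromeric histone, the kinesins Kif11 and Kif20a, and Tpx2 and Nusap1, which act on spindle microtubules. Their changes lay between 0.93 (Kif11) and 1.16 (Tpx2) in transgenic mice and between 0.86 (Kif11) and 1.78 (Cenpa) in wild type mice. With quantile normalization Kif11 and Kif20a lost their calls in both genotypes, at adjusted p of 0.111 (Kif11) and 0.0717 (Kif20a) in transgenic mice and 0.275 (Kif11) and 0.115 (Kif20a) in wild type mice, and Kif11 its averaged call (0.0556). Cenpa had the highest untreated levels of its role, with 1.56 and 2.59 FPKM in untreated transgenic livers and 1.35 and 0.981 FPKM in untreated wild type livers. The kinetochore motor gene Cenpe was under the filter in all libraries, with 0.661 and 0.326 FPKM in transgenic LPS livers, 0.0344 and 0.0241 FPKM in untreated transgenic livers, 0.374 and 0.397 FPKM in wild type LPS livers, and 0.0194 and 0.0252 FPKM in untreated wild type livers.

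**Figure D2:**
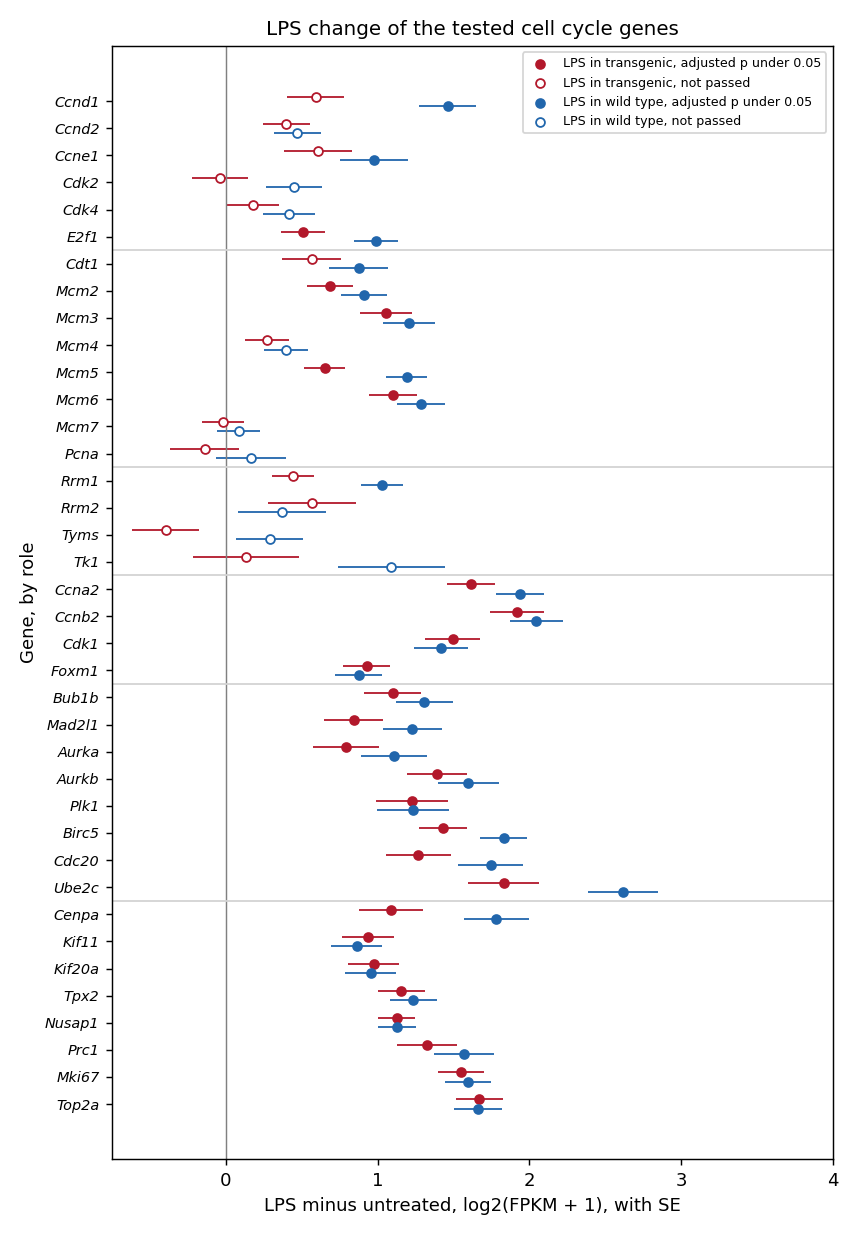
LPS change (LPS minus untreated, log2(FPKM + 1), horizontal axis) of the 38 genes tested, in transgenic mice (red) and wild type mice (blue), with bars of 1 SE and filled points for genes that passed. Every point of the late class, from Ccna2 down to Top2a, is filled and lies at 0.79 or above, while the early class at the top runs between -0.40 (Tyms in transgenic mice) and 1.46 (Ccnd1 in wild type mice). Most late genes shown reached the filter only through LPS libraries.

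The origin licensing and fork genes did not all change. Of the 10, 7 were separated by treatment, with LPS higher (19.4% of all features), and Mcm7, Pcna and Cdc45 were not. Mcm6, a subunit of the replicative helicase (chr1:128331590-128359664), had 2.99 and 3.67 FPKM in transgenic LPS livers, against 1.24 and 0.812 FPKM in untreated transgenic livers. In wild type mice it had 3.93 and 3.56 FPKM with LPS, against 0.882 and 1.01 FPKM untreated. Mcm6 rose by 1.10 ± 0.16 in transgenic and 1.29 ± 0.16 in wild type mice (limma, adjusted p = 0.00244 and 0.000997). Mcm3, of the same ring of 6 subunits, had 3.12 and 3.05 FPKM in transgenic LPS livers, against 1.19 and 0.763 FPKM in untreated transgenic livers. It had 3.99 and 3.19 FPKM in wild type LPS livers, against 1.19 and 0.799 FPKM in untreated wild type livers. Mcm3 rose by 1.06 ± 0.17 in transgenic and 1.20 ± 0.17 in wild type mice (limma, adjusted p = 0.00430 and 0.00211). Mcm5 had 1.45 and 1.07 FPKM in transgenic LPS livers, 0.402 and 0.471 FPKM in untreated transgenic livers, 1.94 and 2.04 FPKM in wild type LPS livers, and 0.329 and 0.285 FPKM in untreated wild type livers. It rose by 0.65 ± 0.13 in transgenic and by 1.19 ± 0.13 in wild type mice (limma, adjusted p = 0.0118 and 0.000692), and the transgenic call was lost in turn without either untreated transgenic library, without replicate 1 of transgenic LPS or with quantile normalization. Mcm2 rose by 0.68 and 0.91 (adjusted p = 0.0150 and 0.00418). Both Mcm2 and Mcm5 reached the filter only through LPS libraries and had to be higher there. Mcm4 passed only averaged over the genotypes (0.33, adjusted p = 0.0368), a call lost in 6 of the 8 fits that left out 1 library, and its averaged value was -0.0026 with quantile normalization.

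Mcm7, the last of the helicase genes, had 3.21 and 3.32 FPKM in transgenic LPS livers, 3.76 and 2.92 FPKM in untreated transgenic livers, 3.29 and 3.13 FPKM in wild type LPS livers, and 3.03 and 2.92 FPKM in untreated wild type livers. It was the helicase gene with the highest untreated mean in both genotypes, and its averaged change was 0.03 ± 0.10 (adjusted p = 0.819). Its row also holds 2 microRNA genes. Pcna, the sliding clamp of the polymerases, changed by 0.01 ± 0.16 averaged (adjusted p = 0.959). Its replicates under LPS differed in transgenic mice, at 3.54 and 6.35 FPKM, against 5.64 and 5.11 FPKM in untreated transgenic livers, and were 6.96 and 6.56 FPKM in wild type LPS livers, against 5.27 and 6.63 FPKM in untreated wild type livers. Pcna has 2 deposited rows, of which the row with the higher sum was taken. The other row had 3.75 and 0.981 FPKM in transgenic LPS livers, against 0.991 and 0.317 FPKM in untreated transgenic livers. In wild type mice that row had 1.59 and 0.0877 FPKM with LPS, against 1.19 and 0.0979 FPKM untreated. Between the transgenic LPS replicates the 2 rows ran in opposite directions, so the replicate difference and the change of Pcna hold for the row taken only. Cdt1, which loads the helicase, had a change of 0.56 in transgenic mice (adjusted p = 0.0680) and rose in wild type mice (0.87, adjusted p = 0.0159). The call in wild type mice was lost without either wild type LPS library. Cdc6, a second loading factor, and Cdc45, which activates the helicase, were not tested. Cdc6 had 0.181 and 0.212 FPKM in transgenic LPS livers, 0.0172 and 0.0497 FPKM in untreated transgenic livers, 0.333 and 0.235 FPKM in wild type LPS livers, and 0.0414 and 0.0124 FPKM in untreated wild type livers, with no overlap between treatments. Cdc45 had 0.745 and 0.851 FPKM in transgenic LPS livers, 0.572 and 0.186 FPKM in untreated transgenic livers, 0.898 and 1.16 FPKM in wild type LPS livers, and 0.935 and 0.546 FPKM in untreated wild type livers.

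Of the 7 G1 and G1/S regulators, all but Cdk2 were separated by treatment, with LPS higher (19.4% of all features). The changes of the kinases were small. Ccnd1, cyclin D1, which links growth signals to the cycle and is induced in regenerating liver (chr7:144929931-144939925), had 5.63 and 5.10 FPKM in transgenic LPS livers, against 2.90 and 3.57 FPKM in untreated transgenic livers. In wild type mice it had 10.8 and 7.36 FPKM with LPS, against 2.51 and 2.71 FPKM untreated. Its change of 0.59 ± 0.19 in transgenic mice missed the threshold at an adjusted p of 0.0530, and it rose by 1.46 ± 0.19 in wild type mice (limma, adjusted p = 0.00125). The transgenic call was gained with the smaller pseudocount, with scaling to a common sum, with only the groups compared, or without either wild type LPS library. E2f1, a factor that activates replication genes, had 1.26 and 1.30 FPKM in transgenic LPS livers, against 0.788 and 0.436 FPKM in untreated transgenic livers. It had 1.66 and 1.81 FPKM in wild type LPS livers, against 0.333 and 0.421 FPKM in untreated wild type livers. E2f1 rose by 0.51 ± 0.15 in transgenic and by 0.99 ± 0.15 in wild type mice (limma, adjusted p = 0.0388 and 0.00252), and the transgenic call was lost in 5 of the 8 fits without 1 library. Ccne1, cyclin E1, had 1.25 and 1.32 FPKM in transgenic LPS livers, against 0.417 and 0.582 FPKM in untreated transgenic livers. It had 1.86 and 1.41 FPKM in wild type LPS livers, against 0.686 and 0.0508 FPKM in untreated wild type livers. Its change was 0.61 ± 0.22 in transgenic mice (adjusted p = 0.0842) and it rose by 0.98 ± 0.22 in wild type mice (adjusted p = 0.0185), a call lost on leaving out either wild type LPS library or the second untreated wild type library. Both Ccne1 and E2f1 reached the filter only through LPS libraries and had to be higher there. Ccnd2, cyclin D2, passed only averaged, at 0.43 (adjusted p = 0.0177), a call lost with quantile normalization (adjusted p = 0.538), without either wild type LPS library or without replicate 2 of untreated transgenic. Cdk4, the partner of the D cyclins, was the highest of the 44 genes in every library and had 29.9 and 29.5 FPKM in transgenic LPS livers, 28.8 and 23.8 FPKM in untreated transgenic livers, 32.5 and 30.8 FPKM in wild type LPS livers, and 26.8 and 20.6 FPKM in untreated wild type livers. Its averaged change of 0.30 ± 0.12 did not pass (adjusted p = 0.0944), a call gained with scaling to a common sum or with quantile normalization. The averaged change of Cdk2, the partner of cyclin E, was 0.20 ± 0.13 (adjusted p = 0.253), a call gained with scaling to a common sum. Ccne2, cyclin E2, was not tested and had 0.790 and 0.758 FPKM in transgenic LPS livers, 0.499 and 0.302 FPKM in untreated transgenic livers, 1.31 and 0.782 FPKM in wild type LPS livers, and 0.509 and 0.716 FPKM in untreated wild type livers.

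Of the 4 deoxynucleotide genes, 1 was separated by treatment, with LPS higher, where 19.4% of all features had this order. The count of 1 of 4 is near that share, so nothing is read from it. Rrm1, the large subunit of ribonucleotide reductase, had 3.50 and 3.19 FPKM in transgenic LPS livers, against 2.02 and 2.39 FPKM in untreated transgenic livers. It had 4.01 and 4.14 FPKM in wild type LPS livers, against 1.31 and 1.67 FPKM in untreated wild type livers. Its change of 0.44 ± 0.14 in transgenic mice had an adjusted p of 0.0508, a call gained with the replicate block, with scaling to a common sum or without either untreated wild type library. Rrm1 rose by 1.03 ± 0.14 in wild type mice (limma, adjusted p = 0.00155). Tk1, thymidine kinase, had 3.62 and 7.54 FPKM in transgenic LPS livers, against 5.48 and 4.07 FPKM in untreated transgenic livers. It had 12.2 and 15.6 FPKM in wild type LPS livers, against 8.18 and 4.28 FPKM in untreated wild type livers. The wild type libraries were separated and the transgenic ones were not, and neither change passed (0.13 ± 0.35 in transgenic and 1.09 ± 0.35 in wild type mice, adjusted p = 0.816 and 0.0644). With scaling to a common sum the wild type and averaged calls of Tk1 were gained. Rrm2, the small subunit of ribonucleotide reductase, had 4.53 and 9.95 FPKM in transgenic LPS livers, 3.94 and 4.59 FPKM in untreated transgenic livers, 6.28 and 7.43 FPKM in wild type LPS livers, and 4.70 and 5.44 FPKM in untreated wild type livers. Its averaged change of 0.47 ± 0.21 did not pass (adjusted p = 0.114), a call gained with scaling to a common sum. Tyms, thymidylate synthase, changed by -0.40 ± 0.22 in transgenic mice and 0.29 ± 0.22 in wild type mice, and neither passed (adjusted p = 0.224 and 0.388).

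**Figure D3:**
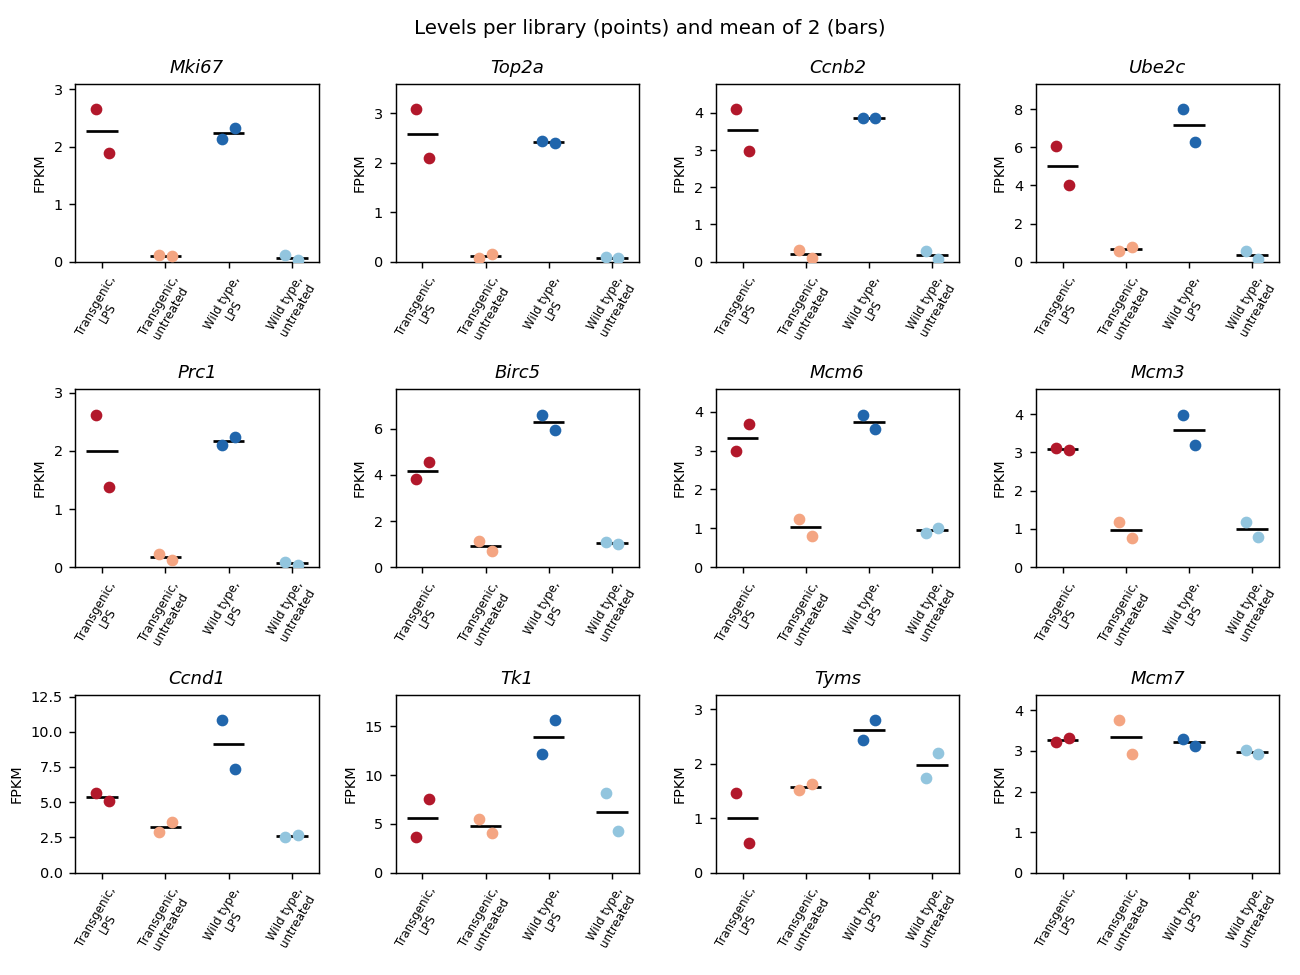
Level in FPKM (vertical axis, from 0) of 12 genes in each library (points), with the mean of 2 libraries as a bar, in transgenic LPS, transgenic untreated, wild type LPS and wild type untreated livers. Late genes such as Mki67 and Top2a sit near 0 untreated and between 1.88 and 3.09 FPKM with LPS, Mcm6 and Mcm3 start near 1 FPKM, and Mcm7 has 2.92 to 3.76 FPKM in every group.

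Promoter motifs were counted in both classes. Late promoters are known for a CCAAT box with a cell cycle genes homology region (CHR), and replication gene promoters for E2F sites. A window of 250 bases before to 50 after the start was available for 35 of the 44 genes (RefSeq, build GRCm38.p6), 18 late and 17 early. Motifs were searched on both strands. The CHR was searched as TTTGAA and also as TTCGAA. The CCAAT box was searched by its letters, the E2F site as TTTNNCGC and the TATA box as TATAAA. A CHR match was present in 13 of 18 late windows (72.2%) and in 3 of 17 early windows (17.6%), against 14.5% of 12401 protein-coding genes with a value. CCAAT was present in 15 of 18 late (83.3%) and 10 of 17 early windows (58.8%), against 38% of those genes. The E2F match was present in 1 of 18 late (5.56%) and 8 of 17 early windows (47.1%), against 7.56%. All 13 late windows with a CHR match also held CCAAT, a pair found in 3 early windows and 5.97% of the 12401 genes. TATAAA was found in 0 late windows and 1 early window, against 9.02%. TTCGAA reads the same on both strands and so counts on both, and CCAAT or E2F matches can overlap one another. A match is a string of letters and was not measured as a bound site.

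Stretches before the start are shown for the late genes Ube2c, Ccnb2 and Top2a and the early genes Mcm6 and Mcm3, which had the highest averaged changes of those with a motif. Each is written 5′ to 3′ on the strand of its gene, with motif matches in capitals. The stretches are chr2:164769686-164769891 (+) for Ube2c, chr9:70421556-70421736 (-) for Ccnb2, chr11:99024192-99024431 (-) for Top2a, chr1:128359706-128359830 (-) for Mcm6 and chr1:20820325-20820444 (-) for Mcm3.
Ube2c: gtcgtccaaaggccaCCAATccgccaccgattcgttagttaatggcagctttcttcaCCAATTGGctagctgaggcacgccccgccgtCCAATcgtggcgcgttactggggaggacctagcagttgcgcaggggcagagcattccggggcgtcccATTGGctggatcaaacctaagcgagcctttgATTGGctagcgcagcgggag
Ccnb2: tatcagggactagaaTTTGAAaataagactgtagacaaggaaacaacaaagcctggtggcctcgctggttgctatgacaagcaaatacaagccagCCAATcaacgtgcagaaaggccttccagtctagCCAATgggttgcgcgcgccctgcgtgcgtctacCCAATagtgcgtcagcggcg
Top2a: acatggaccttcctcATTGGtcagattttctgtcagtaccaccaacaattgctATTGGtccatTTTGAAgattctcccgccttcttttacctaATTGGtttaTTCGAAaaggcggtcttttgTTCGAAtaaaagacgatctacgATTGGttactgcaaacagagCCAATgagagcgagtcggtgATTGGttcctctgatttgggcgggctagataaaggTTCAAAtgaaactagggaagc
Mcm6: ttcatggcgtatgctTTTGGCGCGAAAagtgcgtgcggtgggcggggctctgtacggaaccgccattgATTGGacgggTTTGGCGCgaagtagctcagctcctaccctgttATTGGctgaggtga
Mcm3: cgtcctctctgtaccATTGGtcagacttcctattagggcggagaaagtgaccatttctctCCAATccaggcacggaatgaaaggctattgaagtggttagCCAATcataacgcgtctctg
In Ube2c the capitals are CCAAT boxes on either strand, and its CHR match lies outside the stretch shown. Ccnb2 holds TTTGAA followed by 3 CCAAT boxes, and their first bases lie 87, 54 and 21 bases before the start. Top2a holds both forms of the CHR, TTTGAA on either strand and TTCGAA, which reads the same on both, besides CCAAT boxes on both strands. Mcm6 holds TTTGGCGC, an E2F match, in 2 places, the first of them overlapping a match on the other strand, and 2 CCAAT boxes on the opposite strand. The Mcm3 stretch holds CCAAT boxes on both strands, and the E2F match of that gene lies outside it.

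No cell cycle gene differed between the genotypes by the test. In transgenic against wild type mice, 0 of 38 genes passed untreated (0.0262% of all features passed higher and 0.0349% lower) and 0 of 38 passed under LPS (0.00% higher and 0.00% lower). The difference of the LPS changes (transgenic minus wild type) passed for 0 of 38 (0.00% higher and 0.00872% lower). At an unadjusted p under 0.05 there were 1 of 38 genes untreated (5.51% of all features), 5 of 38 under LPS (12.2%) and 4 of 38 in the interaction (10.4%), shares near or below those of all features, so nothing is read from these counts. The smallest adjusted p of any of the 38 was 0.826, 0.287 and 0.418. The 5 genes under LPS were Ccnd1, Mcm5, Tyms, Tk1 and Birc5, with changes between -1.24 (Tk1) and -0.41 (Mcm5). The 4 of the interaction were Ccnd1 (-0.87), Ube2c (-0.79), Rrm1 (-0.59) and Mcm5 (-0.54). With 2 livers per group these p-values do not show that the genotypes act alike.

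The order of single libraries was also counted by class. Both transgenic LPS libraries were below both wild type LPS libraries for 17 of 44 genes (24.7% of all features), 13 of 21 early and 4 of 23 late. They were above for 1 gene, Nusap1 (19.2% of all features). In untreated livers both transgenic libraries were above both wild type libraries for 11 genes (15.0% of all features) and below for 5 (12.0%). Most late genes differed between the 2 transgenic LPS livers. Replicate 1 was above replicate 2 for 22 of 23 late genes and 11 of 21 early genes (46.5% of all features), and at least 1.25 times as high for 21 late and 3 early genes (22.1% of features above 0 in replicate 2). In wild type LPS livers replicate 1 was the higher for 6 of 23 late genes and 12 of 21 early genes (50.6% of all features). Summed over the 23 late genes, the level was 61.1 and 40.9 FPKM in transgenic LPS livers, 7.29 and 8.13 FPKM in untreated transgenic livers, 58.6 and 59.4 FPKM in wild type LPS livers, and 6.83 and 5.16 FPKM in untreated wild type livers. Summed over the 21 early genes it was 80.8 and 92.6 FPKM in transgenic LPS livers, 70.3 and 62.5 FPKM in untreated transgenic livers, 109.8 and 107.9 FPKM in wild type LPS livers, and 68.5 and 58.1 FPKM in untreated wild type livers. Without replicate 1 of transgenic LPS the count that rose in transgenic mice was 19, and without replicate 2 it was 25.

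Other genes of the cycle were read from lists chosen for their roles. Of all features tested, 20.6% rose and 15.8% fell averaged over the genotypes. Of 50 further mitosis genes 29 were tested, and 24 rose and 1 fell. Of the 29, 20 reached the filter only through LPS libraries and had to be higher there, so this count is a description. Their median change was 1.00, against -0.06 for all features tested. Incenp, the scaffold of the chromosomal passenger complex, had 4.40 and 3.09 FPKM in transgenic LPS livers, 0.848 and 0.635 FPKM in untreated transgenic livers, 3.38 and 4.39 FPKM in wild type LPS livers, and 0.501 and 0.342 FPKM in untreated wild type livers. It rose by 1.60 averaged (adjusted p = 7.4e-05), and Kif23 and Racgap1, the pair that forms centralspindlin, by 1.58 and 1.46. The gene that fell was Pttg1, securin, at -0.57 (adjusted p = 0.0166), named after its value was seen. Of 30 further replication genes 21 were tested, and 6 rose and 1 fell, with a median of 0.23. The 6 of 21 is not far from the share of all features. Fen1, the flap endonuclease, and Lig1, the DNA ligase of Okazaki fragments, rose by 0.85 and 0.70 (adjusted p = 0.000757 and 0.00430). Lig1, Prim2 and Chaf1b of that list reached the filter only through LPS libraries and had to be higher there. Mcm10, a helicase cofactor, had 6.62 and 10.4 FPKM in transgenic LPS livers, 29.6 and 24.2 FPKM in untreated transgenic livers, 22.1 and 23.3 FPKM in wild type LPS livers, and 38.7 and 23.7 FPKM in untreated wild type livers. It fell by 0.99 averaged (adjusted p = 0.00571), by 1.58 in transgenic mice (adjusted p = 0.00556), and had a change of -0.41 in wild type mice (adjusted p = 0.321), and the difference between the genotypes did not pass (adjusted p = 0.426).

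Regulators of the 2 classes were read against the same shares, 20.6% higher and 15.8% lower of all features. Among 18 pocket protein, E2F and DREAM genes 15 were tested, with 3 that rose (Rb1, Rbl1 and E2f2) and 3 that fell (E2f6, E2f8 and Rbbp4) averaged over the genotypes. Both counts lie near those shares, and the median change was -0.17. E2f8, a repressor of E2F target genes that is known for its role in hepatocyte polyploidy, had 4.22 and 7.52 FPKM in transgenic LPS livers, 18.5 and 16.0 FPKM in untreated transgenic livers, 5.07 and 4.53 FPKM in wild type LPS livers, and 12.0 and 15.0 FPKM in untreated wild type livers. It fell by 1.45 in transgenic and 1.32 in wild type mice (limma, adjusted p = 0.00465 and 0.00634). E2f2 rose by 1.20 and 1.26 (adjusted p = 0.00587 and 0.00418). Both E2f2 and Rbl1 reached the filter only through LPS libraries and had to be higher there, so their calls are a description. Of 5 tested inhibitors of cyclin-dependent kinases 3 rose averaged, Cdkn1c (0.98), Cdkn2d (0.64) and Cdkn2c (0.44). Cdkn1a, the p53 target p21, named after its values were seen, had 27.8 and 30.9 FPKM in transgenic LPS livers, 22.2 and 17.8 FPKM in untreated transgenic livers, 13.8 and 17.5 FPKM in wild type LPS livers, and 34.6 and 53.5 FPKM in untreated wild type livers. It had a change of 0.54 in transgenic mice (adjusted p = 0.130) and fell by 1.42 in wild type mice (adjusted p = 0.00417), and the interaction of 1.95 did not pass (adjusted p = 0.271). Among 11 tested hepatocyte mitogens and receptors 3 rose averaged, Tgfb1 (1.95), Hbegf (1.18) and Myc (0.92), with a list median of 0.13, a count near the share of all features. Of these, Hbegf reached the filter only through LPS libraries and had to be higher there. Hbegf is a ligand of the EGF receptor and Myc a growth factor response gene, while Tgfb1 encodes a cytokine known to inhibit hepatocyte growth.

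Markers of several cell types moved with LPS beside the cell cycle genes. Hepatocyte markers, which define the tissue, summed to 18433 to 21866 FPKM in transgenic LPS livers, 23592 to 27629 FPKM in untreated transgenic livers, 20816 to 21260 FPKM in wild type LPS livers, and 29226 to 35838 FPKM in untreated wild type livers, and 5 of 14 fell averaged (15.8% of all features). In transgenic mice 2 of the 14 fell (10.5%) and 1, Tat, rose (16.0%). As a percent of the FPKM sum of the library, these markers made up 5.39% and 4.04% in transgenic LPS livers, 5.27% and 4.72% in untreated transgenic livers, 4.45% and 4.62% in wild type LPS livers, and 6.19% and 5.40% in untreated wild type livers. On that scale the transgenic treatments overlapped and the wild type ones did not. Of the 6 myeloid precursor markers 5 rose in each genotype and 1, Cebpe, fell in transgenic mice. All 5 reached the filter only through LPS libraries and had to be higher there, so the count is a description. Those that rose included Mpo, Elane and Prtn3, granule proteases and peroxidase made in dividing precursors of granulocytes. The sum of all 6 markers was 12.2 to 17.4 FPKM in transgenic LPS livers, 4.30 to 6.22 FPKM in untreated transgenic livers, 22.1 to 26.8 FPKM in wild type LPS livers, and 1.92 to 3.62 FPKM in untreated wild type livers. Cebpe made up most of the untreated sums, at 5.88 and 3.69 FPKM in transgenic and 3.33 and 1.76 FPKM in wild type livers. With LPS it had 1.06 and 2.36 FPKM in transgenic and 3.48 and 3.46 FPKM in wild type livers. Ctsg and Ms4a3 of that list were listed at 0 in all 4 untreated libraries and had 1.13 and 0.782 FPKM (Ctsg) and 1.30 and 0.334 FPKM (Ms4a3) in transgenic LPS livers. In wild type LPS livers they had 2.84 and 1.56 FPKM (Ctsg) and 1.45 and 1.53 FPKM (Ms4a3). Averaged over the genotypes, 8 of 8 tested neutrophil, 10 of 12 macrophage, 8 of 9 B and plasma cell, 7 of 8 liver endothelial, 9 of 10 stellate and fibroblast, and 4 of 4 platelet markers rose, where 20.6% of all features rose. The ninth B and plasma cell marker, Xbp1, fell (-0.44, adjusted p = 0.0358). Erythroid markers rose in 3 of 5, T and NK cell markers in 2 of 3 and bile duct markers in 0 of 5. Of those tested, 5 neutrophil, 2 macrophage, 7 B and plasma cell, 3 platelet, 2 erythroid, 3 T and NK cell and 2 bile duct markers reached the filter only through LPS libraries. Macrophage sums were 1126 to 1186 FPKM in transgenic LPS livers, 181 to 246 FPKM in untreated transgenic livers, 1277 to 1317 FPKM in wild type LPS livers, and 171 to 258 FPKM in untreated wild type livers. Neutrophil sums were 731 to 1229 FPKM in transgenic LPS livers, 23.0 to 70.0 FPKM in untreated transgenic livers, 691 to 1191 FPKM in wild type LPS livers, and 53.8 to 65.7 FPKM in untreated wild type livers. Lcn2 was the largest part of the neutrophil sum in every library, at 452 and 1050 FPKM in transgenic LPS livers. Every other neutrophil marker with a value was higher in replicate 1 of those livers, such as S100a8 at 137 and 96.2 FPKM. Endothelial sums were 317 to 320.1 FPKM in transgenic LPS livers, 122 to 125 FPKM in untreated transgenic livers, 299.9 to 319.5 FPKM in wild type LPS livers, and 119 to 143 FPKM in untreated wild type livers. Erythroid sums were 54.9 to 79.0 FPKM in transgenic LPS livers, 42.0 to 46.7 FPKM in untreated transgenic livers, 66.1 to 109.6 FPKM in wild type LPS livers, and 44.5 to 47.9 FPKM in untreated wild type livers. B and plasma cell sums were 204 to 225 FPKM in transgenic LPS livers, 175 to 191 FPKM in untreated transgenic livers, 225 to 237 FPKM in wild type LPS livers, and 143 to 184 FPKM in untreated wild type livers. Both lists had all LPS sums above all untreated sums. Sdc1 and Xbp1 made up most of the untreated B and plasma cell sums, at 76.5 and 105 FPKM in replicate 1 of untreated wild type livers. Their mean with LPS was 1.32 (Sdc1) and 0.834 (Xbp1) times the untreated mean in wild type mice. For the other tested markers of that list it was 7.45 (Ms4a1) to 39.5 (Igj) times, from low untreated values. T and NK cell sums were 6.23 to 8.05 FPKM in transgenic LPS livers, 2.45 to 2.79 FPKM in untreated transgenic livers, 6.17 to 7.04 FPKM in wild type LPS livers, and 2.14 to 2.89 FPKM in untreated wild type livers. The markers of that list that rose were Nkg7 and Klrd1, and Gzmb was tested and did not pass. The T cell markers Cd3d, Cd3e, Cd3g, Cd4 and Cd8a were not tested. All of them but Cd8a overlapped between the treatments. The part of these cell types in the cell cycle result was not tested.

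**Figure D4:**
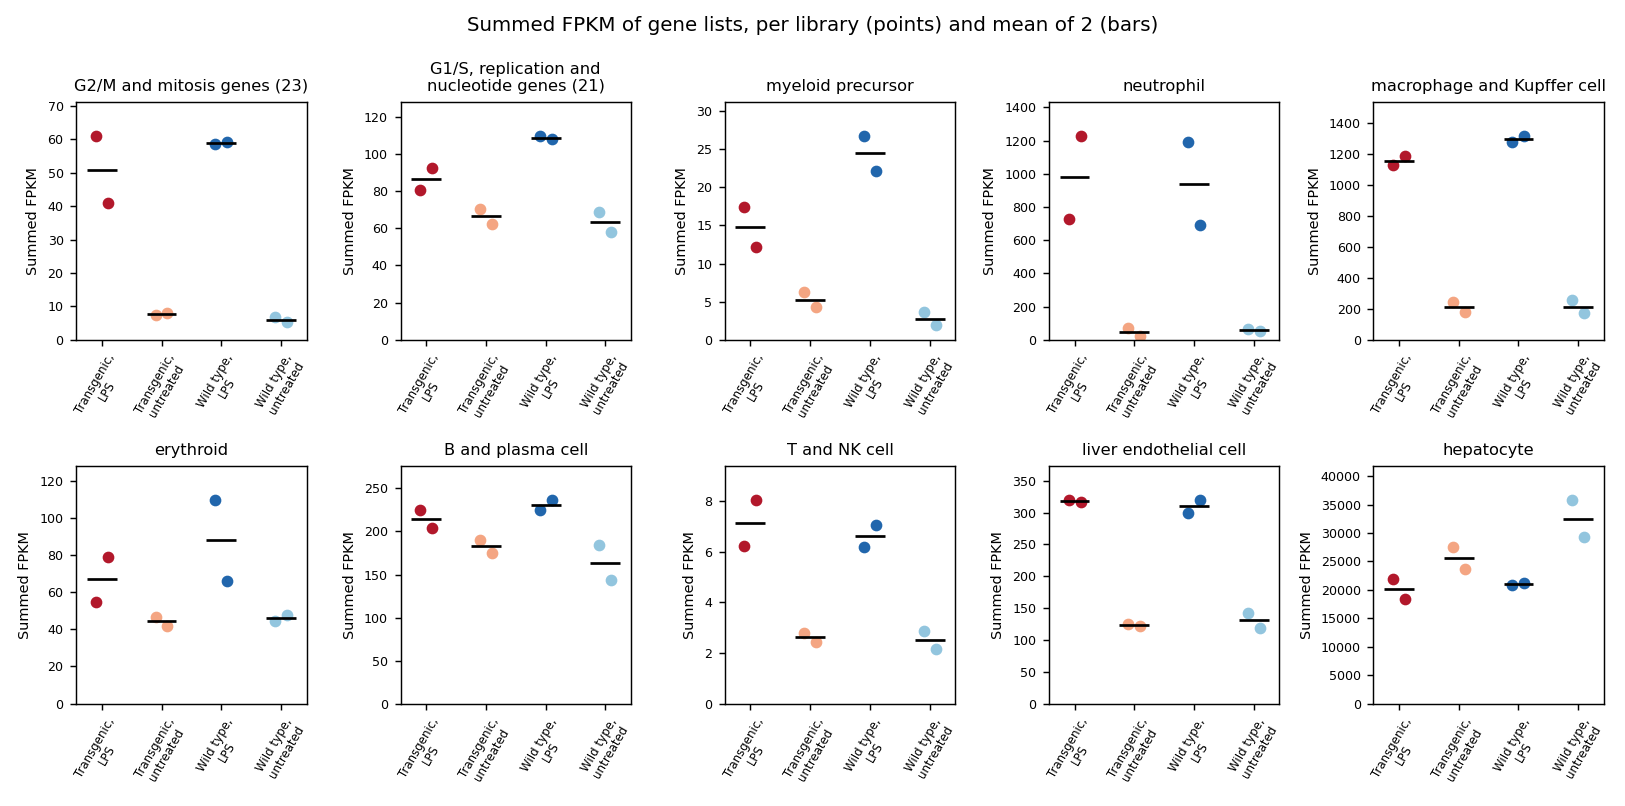
Summed FPKM (vertical axes, from 0) of the 23 late and 21 early genes and of 8 lists of cell type markers in each library (points), with the mean of 2 libraries as a bar. The sums of the late genes, the early genes and every marker list but that of hepatocytes are higher in the 4 LPS libraries than in the 4 untreated ones. The hepatocyte markers, as deposited, are lower.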

How the data were processed

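The deposited table holds 8 columns of FPKM values, which the authors made from the reads of 8 whole liver libraries, and 0 columns matched no sample. Per the submitters' processing notes, the tools were TopHat2 (2.1.0), Bowtie2 (2.2.6), Cufflinks and Cuffdiff (2.2.1), on build mm10. No source used here gives the annotation or a scaling of libraries to each other. Fragment counts were not used, depth is unknown, and low values gave no step common to all columns, so no count test was run.

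Of 24545 rows, 6197 were 0 throughout. For 494 repeated names the row with the highest sum was kept, and names with identical values were joined into 548 sets, which left 17293 features. Values were transformed with log2 after adding 1 FPKM. A feature was tested where 2 or more libraries of any group reached 1 FPKM. The fit used limma (3.58.1, in R 4.3.3) with 1 mean per group, 4 residual degrees of freedom and trended empirical Bayes moderation. Tests were 2-sided, with Benjamini-Hochberg adjustment over 11462 features and a threshold of 0.05, and the code was tested on simulated data. There were 6 contrasts: the LPS change per genotype and averaged, the transgene effect per treatment, and the interaction. Contrasts that share libraries are not independent. Alternatives were another pseudocount, filter or scaling, a replicate block, only the groups compared, and each library left out.

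The 44 genes and the other lists were chosen with earlier results of these data known. Values per library are given by rule for Mki67, Top2a, Ccnd1 and the 3 genes of each role with the largest averaged LPS change, and other genes with such values were chosen after their values were seen. In other lists up to 3 genes with the largest averaged change are named. The markers Ly6g, Ahsp and Jchain had no row of that name. Gene positions and exon overlaps came from GENCODE on GRCm38, and promoters from RefSeq on GRCm38.p6.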

Additional observations from a re-analysis of the deposited data

Results flagged for a closer look

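Tyms, thymidylate synthase, moved in opposite directions in the genotypes. It had 1.47 and 0.541 FPKM in transgenic LPS livers, against 1.51 and 1.63 FPKM in untreated transgenic livers, and 2.44 and 2.80 FPKM in wild type LPS livers, against 1.74 and 2.2 FPKM in untreated wild type livers. Both transgenic LPS libraries were below both untreated transgenic ones, and both wild type LPS libraries were above both untreated wild type ones. The difference of the LPS changes (transgenic minus wild type) was -0.69 on the log2(FPKM + 1) scale, which did not pass (limma, adjusted p = 0.499). Of all features, 702 (4.06%) had such opposite orders. Without replicate 1 of transgenic LPS, Tyms passed as lower with LPS in transgenic mice.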

How the results depend on the processing

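As deposited, the median averaged LPS change of all features was -0.057, and it was 0.174 after scaling each library to a common sum and -0.109 with quantile normalization, so changes are to be read against it. Role medians are given in the order G1 and G1/S, origin licensing and fork, deoxynucleotide supply, G2/M, mitotic kinases and checkpoint, spindle and chromosome. They were 0.59, 0.76, 0.54, 1.62, 1.36 and 1.32 as reported and 0.75, 1.10, 0.80, 2.24, 1.99 and 1.95 after scaling. With quantile normalization the G1, licensing, G2/M, kinase and spindle medians were 0.35, 0.40, 1.25, 0.96 and 0.95. With a pseudocount of 0.1 FPKM those 5 medians were 0.96, 1.31, 2.99, 2.88 and 2.97. With no filter the G1, licensing and G2/M medians were 0.43, 0.53 and 1.46. With a filter of 5 FPKM, which left 9 of the 44 genes, the G1, licensing and kinase medians were 0.30, 0.012 and 1.93.

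The number of genes that rose with LPS was 25 in transgenic mice, 29 in wild type mice and 31 averaged. It was 3, 4 and 4 with the filter of 5 FPKM, and 16, 22 and 28 with quantile normalization. After scaling it was 30, 36 and 39, of 42 tested. Mcm4 reversed its averaged value with quantile normalization (-0.0026), and the cause was not tested. Leaving out 1 library at a time gave 19 to 28 in transgenic mice, 23 to 31 in wild type mice and 28 to 32 averaged. The number that fell was 0 to 1 in transgenic mice (Tyms, without replicate 1 of transgenic LPS), 0 to 0 in wild type mice and 0 to 0 averaged, and the genotype contrasts and interaction stayed at 0 to 0. In those fits a lone library is assumed to vary like the other groups. Of the calls, 18 of 25 in transgenic mice, 24 of 29 in wild type mice and 29 of 31 averaged were kept in all 8 fits. The medians by role ranged over 0.50 to 0.63, 0.66 to 0.86, 0.31 to 0.71, 1.61 to 1.77, 1.21 to 1.50 and 1.20 to 1.41. Calls lost without 1 library, beside those named in the report, were Cenpa, Mad2l1, Mcm2 and Plk1 in transgenic mice, and Aurka, Kif11 and Plk1 in wild type mice.

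Over all features, the counts higher with LPS were 1833 in transgenic mice, 1860 in wild type mice and 2363 averaged, of 11462 tested. With the filter of 5 FPKM they were 887, 885 and 1126, of 7634 tested. After scaling to a common sum 12700 features were tested. Scaling to a common sum gave 2673 higher and 674 lower in transgenic mice, against 1833 and 1200, and 2927 higher and 148 lower in wild type mice, against 1860 and 619. Averaged, it gave 3798 higher and 702 lower, against 2363 and 1813. Higher calls were 60.4% of calls in transgenic and 75.0% in wild type mice, 79.9% and 95.2% after scaling, and 53.8% and 59.5% with quantile normalization, which gave 993 lower in wild type mice. Averaged, they were 56.6%, 84.4% after scaling and 44.8% with quantile normalization. Without 1 library the counts lay between 1005 and 2036 higher and 224 and 1606 lower in transgenic mice, lowest without replicate 2 of untreated transgenic, and between 1156 and 2231 higher and 62 and 1221 lower in wild type mice, lowest without replicate 1 of wild type LPS. Averaged, 798 to 2187 were lower. Without replicate 2 of transgenic LPS, 154 features were higher and 269 lower with the transgene under LPS, and 119 and 157 in the interaction.

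Same-numbered replicates were not stated to come from a shared litter, batch or day, and their deviations from the group means correlated at 0.04 to 0.46. With a replicate block 26 of the 38 genes tested rose in transgenic mice, 29 in wild type mice and 31 averaged. Of all 11462 features, 1964, 1976 and 2473 rose with that block. Depth is unknown and most late genes lie under 1 FPKM untreated, so their fold changes are imprecise.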
